A study of Mus musculus with 6 samples.

Results

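Scml2 and 9 other genes of the polycomb silencing machinery were followed in whole testes of mice at postnatal day 5. The 10 genes, Scml2, Ring1, Rnf2, Bmi1, Pcgf6, Mga, L3mbtl2, Ezh2, Eed and Suz12, were found by matching Ensembl identifiers to gene symbols, 10 of the 57170 identifiers in the deposited table. All 10 passed the filter on low counts and were tested with 17707 genes in all. The tested animals, called sKO, lacked Mdm2 conditionally in germ cells ahead of meiosis and gave 4 libraries of polyadenylated RNA, sKO-1 to sKO-4. The wild-type animals, called WT, gave 2 libraries, WT-1 and WT-2. Mdm2 encodes the ubiquitin ligase that keeps the tumour suppressor p53 low. The sources used here do not give the Cre line, the strain or the number of animals behind a library. P-values therefore measure the spread between these libraries, which may be technical.

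Polycomb proteins silence genes by marking chromatin. Polycomb repressive complex 1 (PRC1) ubiquitylates histone H2A through RING1 or RNF2, and its many forms differ by which PCGF protein they hold. Polycomb repressive complex 2 (PRC2) methylates histone H3 at lysine 27 through EZH2 or EZH1, with EED and SUZ12 as core partners. In the male germ line of the mouse, SCML2 is a germ-cell-enriched partner of PRC1. The PRC1.6 form, with PCGF6, MGA and L3MBTL2, keeps germline genes silent in mouse embryonic stem cells. Testis cords of young mice contain mostly Sertoli cells, which nurse the germ cells, together with spermatogonia and their precursors.

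The summed expected counts, in megacounts (M), ran from 17.99 M to 18.4 M in sKO libraries and from 18.2 M to 18.3 M in WT libraries. Single counts of the 10 genes in a library ran from 381 to 4076. Mdm2 itself was lower in the libraries labelled sKO, at 37.6, 47.3, 41.8 and 45.1 CPM, against 67.2 and 75.9 CPM in WT (log2 fold change −0.74, SE 0.11, edgeR adjusted p = 0.0241). CPM are counts scaled to a common library size. The call of Mdm2 held without sKO-1 or sKO-4 only, with adjusted p up to 0.171 without another library. Germ cell markers were lower in the same sKO libraries: 18 of 19 tested fell and 0 rose, and their sum was 120 to 201 CPM in sKO, against 661 to 952 CPM in WT. Of 20 markers listed, Utf1 lay under the count filter and was at 0 in sKO-4. Sertoli cell markers summed to 6520 to 7332 CPM in sKO, against 5646 to 6827 CPM in WT, with 1 of 15 higher and 0 lower (DESeq2 2 higher and 1 lower, and 4 higher and 2 lower at an unadjusted p under 0.05). Leydig, endothelial and macrophage markers gave 0 calls in edgeR, DESeq2 and at an unadjusted p under 0.05, and 1 of 5 peritubular markers was lower (2 in DESeq2, 3 unadjusted). Over all genes tested, edgeR called 2.30% lower and 0.124% higher, and 13.1% had an unadjusted p under 0.05. Along principal component 1 (38.1% of variance), sKO-1, sKO-2 and WT-1 (library subset 1) lay apart from sKO-3, sKO-4 and WT-2 (library subset 2), a split that the labels do not name.

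The promoters of Scml2 and of some germline genes that PRC1.6 is known to bind are shown with the motifs of its DNA-reading subunits. The windows run from 250 bases before to 50 bases after the start of the gene, 5′ to 3′ on the gene's strand, from RefSeq (GRCm38.p6), in which all 10 genes were matched. Capitals mark CACGTG, the E-box read by MAX and MGA, and GCGGGAA, an E2F6 motif, searched on both strands, so that TTCCCGC is its other strand. The motifs do not overlap each other in these windows. The Scml2 window, at chrX:161162500-161162799 on the plus strand, holds neither motif and so has no capitals. Stag3 (chr5:138280259-138280558, plus strand), Slc25a31 (chr3:40708621-40708920, plus strand) and Ddx4 (chr13:112652261-112652560, minus strand) are PRC1.6 germline targets that hold both, shown as examples of where the motifs lie. Dazl (chr17:50293571-50293870, minus strand) is a target that, like Scml2, holds neither.
Scml2: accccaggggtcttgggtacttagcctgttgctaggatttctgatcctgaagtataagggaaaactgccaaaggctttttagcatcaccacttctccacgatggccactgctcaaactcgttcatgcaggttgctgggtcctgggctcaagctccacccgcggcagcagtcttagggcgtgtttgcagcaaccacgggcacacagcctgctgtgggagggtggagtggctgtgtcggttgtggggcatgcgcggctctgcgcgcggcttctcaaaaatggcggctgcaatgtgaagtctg
Stag3: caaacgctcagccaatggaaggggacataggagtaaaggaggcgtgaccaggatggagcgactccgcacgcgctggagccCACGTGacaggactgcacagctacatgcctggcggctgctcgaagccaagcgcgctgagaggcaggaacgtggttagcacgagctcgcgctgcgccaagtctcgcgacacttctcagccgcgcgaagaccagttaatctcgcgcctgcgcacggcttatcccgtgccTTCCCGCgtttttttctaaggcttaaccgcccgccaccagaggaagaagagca
Slc25a31: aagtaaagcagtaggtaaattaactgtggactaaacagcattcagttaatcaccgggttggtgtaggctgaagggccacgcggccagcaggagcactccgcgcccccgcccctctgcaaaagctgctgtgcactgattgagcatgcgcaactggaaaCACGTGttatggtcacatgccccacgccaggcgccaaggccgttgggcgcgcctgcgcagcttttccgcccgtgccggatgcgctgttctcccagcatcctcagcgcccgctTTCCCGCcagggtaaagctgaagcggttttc
Ddx4: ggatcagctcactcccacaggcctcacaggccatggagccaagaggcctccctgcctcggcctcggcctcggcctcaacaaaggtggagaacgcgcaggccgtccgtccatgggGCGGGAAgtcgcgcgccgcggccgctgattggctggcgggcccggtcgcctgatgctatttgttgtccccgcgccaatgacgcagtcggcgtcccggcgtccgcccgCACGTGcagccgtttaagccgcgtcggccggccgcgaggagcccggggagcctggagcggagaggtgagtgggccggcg
Dazl: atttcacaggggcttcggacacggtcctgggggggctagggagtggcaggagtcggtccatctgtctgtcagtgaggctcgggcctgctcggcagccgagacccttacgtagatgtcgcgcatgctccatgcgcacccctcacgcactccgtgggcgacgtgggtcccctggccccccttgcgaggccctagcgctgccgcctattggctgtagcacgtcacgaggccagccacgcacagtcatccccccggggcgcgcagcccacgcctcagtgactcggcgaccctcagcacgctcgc

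Of the 10 polycomb genes, Bmi1 had CACGTG in its window and Suz12 had GCGGGAA, while the other 8 had neither. Of 16 PRC1.6 germline targets, 8 had CACGTG, 9 had GCGGGAA, 5 had both and 12 had either, so that Dazl, Stra8, Tex101 and Tdrkh had neither. Over all 32851 windows in the table, 7.15% held CACGTG, 4.60% held GCGGGAA and 0.457% held both. The windows of the 10 genes were 54.7% to 74.0% G and C, against a median of 52.7% over all windows, and those of the targets 47.0% to 72.0%. These are matches of letters, not sites, and the targets were listed as known genes of this complex.

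Scml2, on the X chromosome, had the largest fall of the 10 genes. It was at 27.5, 21.7, 24.4 and 30.6 CPM in sKO-1 to sKO-4, against 103 and 88.3 CPM in WT-1 and WT-2. Every sKO library lay far below both WT libraries, and the lowest WT value was well above the highest sKO value. The means were 26.1 ± 3.84 CPM in sKO (SD, n = 4) and 95.9 ± 10.7 CPM in WT (SD, n = 2), so sKO held 27.2% of the WT level. The log2 fold change was −1.88 (SE 0.14, 95% interval −2.21 to −1.55, edgeR adjusted p = 0.00929). Without WT-1 it was −1.76 with an adjusted p of 0.0875, and it stayed past the threshold without any other single library. Within library subset 1 the log2 fold change was −2.09 and within subset 2 it was −1.69. In bulk RNA, fewer cells of a type and less RNA per cell cannot be told apart.

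Scml2 was also set against the summed germ cell markers. It amounted to 13.8%, 15.8%, 20.4% and 15.2% of the summed CPM of 20 germ cell markers in sKO-1 to sKO-4, against 10.9% and 13.3% in WT-1 and WT-2. All 4 sKO values were above both WT values, with sKO-1 close to WT-2. The mean log2 of this share was −2.63 in sKO and −3.05 in WT, a difference of 0.42. An exact permutation test, two-sided over the 15 assignments, gave p = 0.133, where the smallest possible is 0.0667, so this design could not pass 0.05 and the test does not show that the share was alike. The difference was 0.05 when the mean of log2(CPM + 1) of the markers replaced the log2 of their sum. Here the 1 was added to the markers only and not to Scml2, which shrinks the fall of markers at few CPM. This value is therefore not on the same footing as 0.42 and does not show that the share was alike.

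**Figure D1:**
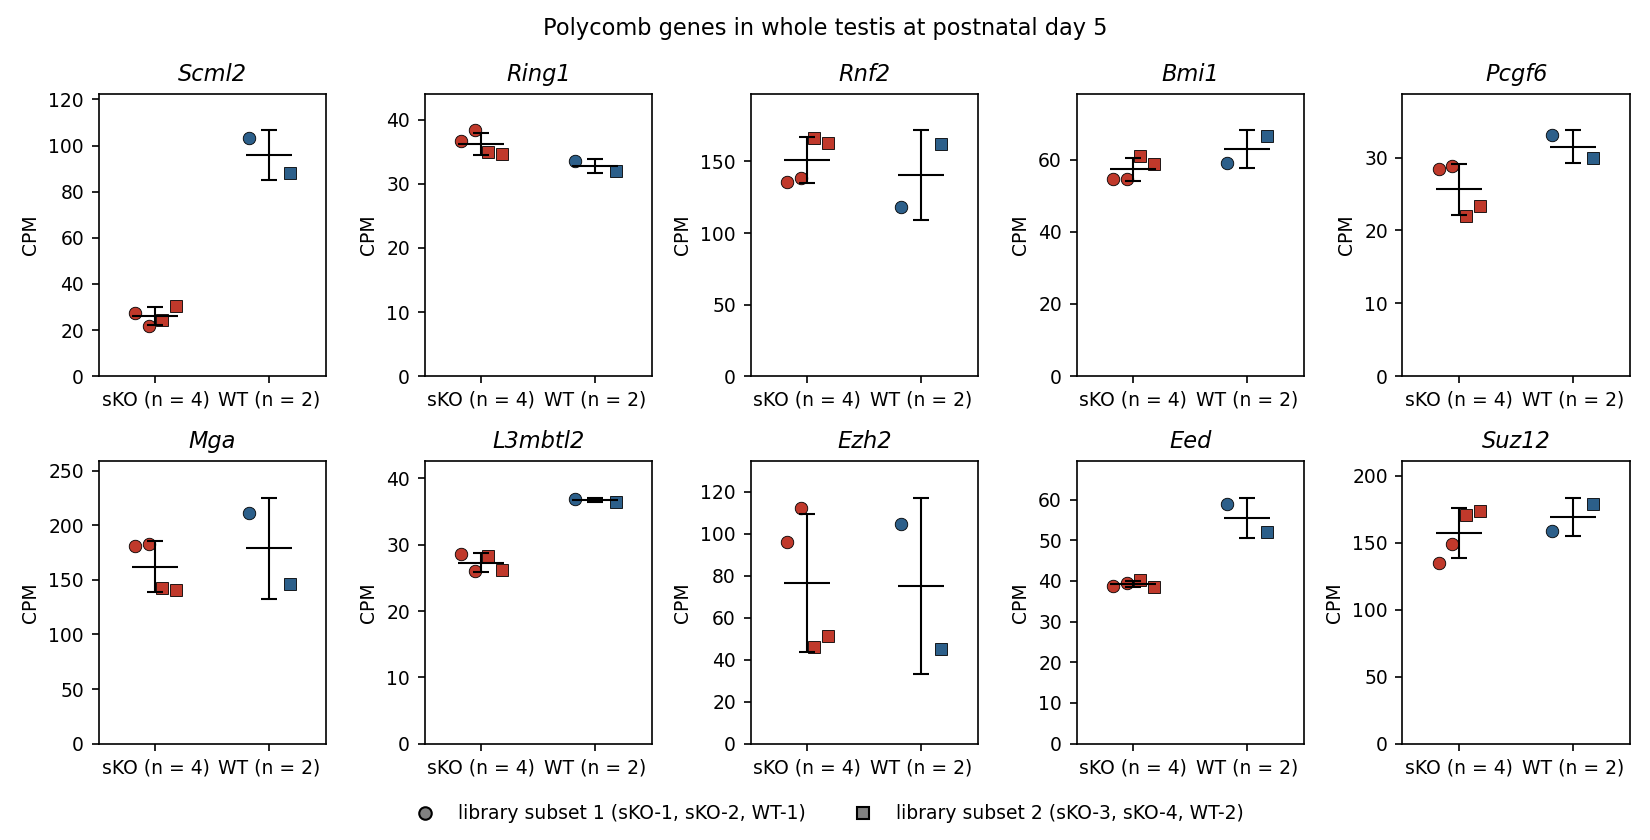
CPM of the 10 polycomb genes in each library, sKO (red, n = 4) left of WT (blue, n = 2). Bars are mean ± SD, circles are library subset 1 and squares library subset 2. Scml2 sits between 21.7 and 30.6 CPM in sKO and at 88.3 and 103 CPM in WT, while Ezh2 separates by subset in both genotypes.

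The catalytic PRC1 subunits did not pass the test. Ring1, one of the paired ubiquitin ligases, was at 36.7, 38.3, 35.0 and 34.6 CPM in sKO, against 33.5 and 32.1 CPM in WT. All 4 sKO values lay above both WT values, by little (log2 fold change 0.14, SE 0.10, 95% interval −0.09 to 0.38, adjusted p = 0.658). With library sizes taken from the Sertoli markers the sign turned for Ring1 (−0.024) and Rnf2 (−0.045). Rnf2, the other ligase, was at 136, 139, 166 and 163 CPM in sKO, against 118 and 163 CPM in WT. Its groups overlapped, and the log2 fold change was 0.10 (SE 0.15, 95% interval −0.24 to 0.45, adjusted p = 0.861). Rnf2 shares 158 bp of exon with Trmt1l on the opposite strand in the GRCm38 annotation. Trmt1l was at 20.9 to 52.5 CPM in sKO and 21.8 to 44.3 CPM in WT, and its part in the Rnf2 values was not tested.

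Among PCGF genes, whose products set which form of PRC1 is built, 1 of 6 passed the test. Over all genes tested 2.43% passed, in either direction. Bmi1 (also called PCGF4) encodes a PCGF protein of CBX-containing complexes. It was at 54.6, 54.7, 61.1 and 58.6 CPM in sKO, against 59.1 and 66.5 CPM in WT. The groups overlapped, with a log2 fold change of −0.13 (SE 0.10, 95% interval −0.36 to 0.09, adjusted p = 0.657). Its paralog Pcgf2 was at 79.0 ± 8.33 CPM in sKO and 63.8 ± 11.2 CPM in WT (log2 fold change 0.31, adjusted p = 0.413). Pcgf5, which holds a variant PRC1 without CBX proteins, fell to 18.9, 19.98, 17.9 and 23.3 CPM in sKO, against 51.8 and 42.6 CPM in WT. The groups were far apart, and the log2 fold change was −1.24 (SE 0.14, adjusted p = 0.0110). Its call was lost without WT-1 only (adjusted p = 0.147).

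Of the CBX genes, whose chromodomains read methylated H3, Cbx2 fell to 25.7, 25.1, 22.1 and 28.1 CPM in sKO, against 46.9 and 37.1 CPM in WT. All sKO values lay below both WT values (log2 fold change −0.73, SE 0.14, adjusted p = 0.0437), but the call was lost without any single library (adjusted p 0.0542 to 0.414). Cbx7 was at 10.8 ± 1.54 CPM in sKO and 16.9 ± 0.250 CPM in WT and did not pass (log2 fold change −0.65, adjusted p = 0.120). Over the 25 listed PRC1 genes, 3 fell and 0 rose (Scml2, Pcgf5 and Cbx2), where 2.30% of all genes tested were called lower and 0.124% higher. Their median log2 fold change was −0.06. Unadjusted, 4 were lower and 1 higher at p under 0.05, against 13.1% of all genes in either direction, and DESeq2 called 4 lower and 0 higher.

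Neither Pcgf6, Mga nor L3mbtl2, of PRC1.6, passed the test. Pcgf6 was at 28.5, 28.9, 22.01 and 23.3 CPM in sKO, against 33.1 and 29.9 CPM in WT. All sKO values lay below both WT values, sKO-1 and sKO-2 narrowly, and the test was not passed (log2 fold change −0.30, SE 0.15, 95% interval −0.64 to 0.05, adjusted p = 0.480). Mga, the large T-box and E-box protein that anchors the complex to DNA, was at 181, 183, 143 and 141 CPM in sKO, against 212 and 146 CPM in WT. In both genotypes the subset 1 libraries were the higher ones, and the groups overlapped (log2 fold change −0.14, SE 0.18, 95% interval −0.56 to 0.27, adjusted p = 0.835).

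L3mbtl2, the MBT-repeat protein of the same complex, was at 28.6, 26.0, 28.4 and 26.2 CPM in sKO, against 37.0 and 36.5 CPM in WT. The groups were tight and did not overlap. The log2 fold change of −0.43 (SE 0.10, 95% interval −0.67 to −0.19) missed the threshold with an adjusted p of 0.0951. Exons of L3mbtl2 share 1023 bp with Chadl on the opposite strand, which was at 1.01 to 2.19 CPM in sKO and 0.623 to 2.03 CPM in WT. Wdr5, a WD-repeat protein of PRC1.6 that also serves histone methyltransferases of the MLL family, fell to 97.97, 94.1, 92.6 and 90.6 CPM in sKO, against 132 and 127 CPM in WT. The difference was −0.47 on the log2 scale (SE 0.08, adjusted p = 0.0274), and the call was lost without any single library (adjusted p 0.0536 to 0.269) and with the replicate number as a block (0.0911). Max, the E-box partner of MGA, was at 67.0, 61.4, 59.3 and 56.4 CPM in sKO, against 52.2 and 53.7 CPM in WT. Its sKO values all lay above both WT values, but it did not pass (log2 fold change 0.21, adjusted p = 0.442). Among the 16 listed PRC1.6 genes Wdr5 was the 1 that fell and 0 rose, also in DESeq2, against 2.43% called over all genes. With the replicate block 0 were called. In that fit sKO-3 and sKO-4 have no WT library of their number and add nothing to the genotype difference. With the subset as a term 4 were lower and 1 higher, where 8.65% of all genes were lower and 4.97% higher. At an unadjusted p under 0.05, 2 were lower and 0 higher, close to the 13.1% of all genes.

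In PRC2, Eed fell while Ezh2 and Suz12 did not pass. Eed, the subunit that binds methylated H3 and stimulates the enzyme, was at 38.8, 39.5, 40.1 and 38.5 CPM in sKO, against 59.0 and 52.1 CPM in WT. The sKO values were nearly equal to each other and all below both WT values. The means were 39.3 ± 0.717 CPM in sKO (SD, n = 4) and 55.5 ± 4.90 CPM in WT (SD, n = 2), with a log2 fold change of −0.50 (SE 0.09, 95% interval −0.71 to −0.29, adjusted p = 0.0396). The call was lost without any single library (adjusted p 0.0676 to 0.359), with upper-quartile factors (0.0529), with no scaling factor (0.0543), with Sertoli library sizes (0.0563) and with no count filter (0.0513). Within subset 1 the Eed log2 fold change was −0.61 and within subset 2 it was −0.41. Eed counts were not whole in any of the 6 libraries, and its exons share 261 bp with E230029C05Rik on the opposite strand, which was at 0.866 to 1.87 CPM in sKO and 1.58 to 1.66 CPM in WT. Counts of Pcgf6 and L3mbtl2 were not whole in 6 libraries either, those of Mga in 5 and those of Rnf2 and Bmi1 in 2. Exons of Ezh2 (174 bp) and Suz12 (178 bp) also overlap noncoding genes on the opposite strand.

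Ezh2, the main methyltransferase of dividing cells, was at 96.2, 112, 46.0 and 51.1 CPM in sKO, against 105 and 45.3 CPM in WT. The high libraries were sKO-1, sKO-2 and WT-1 and the low ones sKO-3, sKO-4 and WT-2, so the values followed the library subsets and not genotype. The sKO against WT log2 fold change was 0.03 with an SE of 0.44 (95% interval −1.0 to 1.05, adjusted p = 0.992). Within subset 1 it was −0.03 and within subset 2 it was 0.09. With the subset as a term, added after seeing the data, it was 0.04 (adjusted p = 0.765). Subset 1 minus subset 2 was 1.10 in sKO and 1.21 in WT on the log2 CPM scale. Only 0.523% of the 10510 genes with at least 10 CPM were higher in subset 1 by 1 or more in both genotypes (2.52% of all genes tested, with 0.881% lower by as much), and by the smaller of its pair of differences Ezh2 ranked 44 among them. The subsets were drawn from these same libraries, so this is a description without a test. Ezh1, the paralog of non-dividing cells, was at 51.5 ± 8.85 CPM in sKO and 57.2 ± 8.32 CPM in WT (adjusted p = 0.808).

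**Figure D2:**
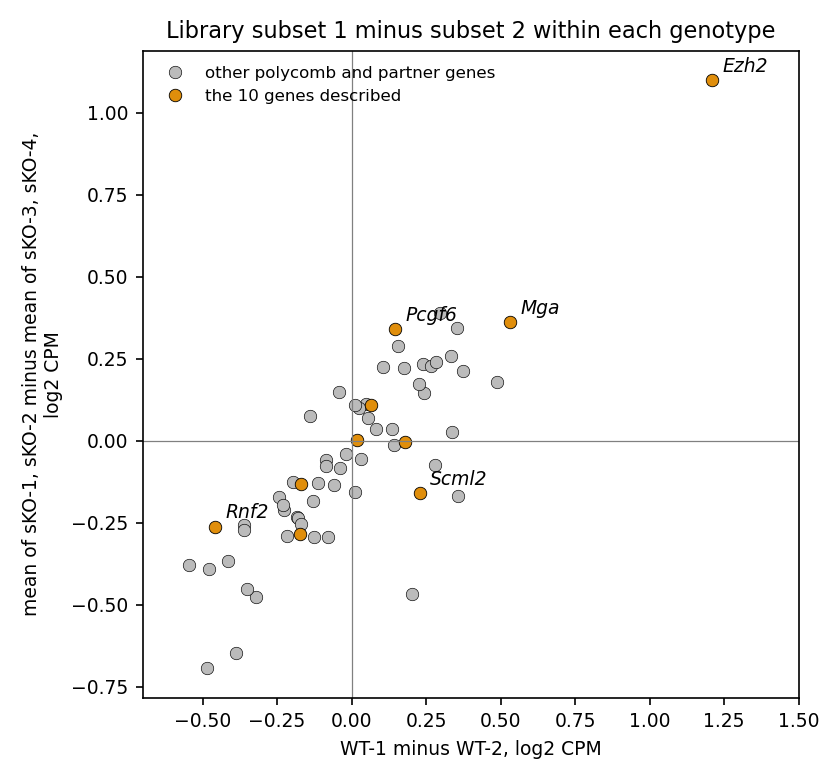
Difference between library subsets 1 and 2 on the log2 CPM scale, within WT (x axis) and within sKO (y axis), for the 64 tested polycomb and partner genes. Orange points are the 10 genes described, and Ezh2, at 1.21 in WT and 1.10 in sKO, stands apart from the others.

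Suz12, the scaffold of PRC2, was at 135, 149, 171 and 174 CPM in sKO, against 159 and 179 CPM in WT. The groups overlapped, with a log2 fold change of −0.11 (SE 0.12, 95% interval −0.39 to 0.18, adjusted p = 0.824). Over 12 measured PRC2 genes 1 fell and 0 rose, with a median of −0.13, against 2.43% called and a median of 0.03 over all genes. DESeq2 called 2 lower and 0 higher, and 2 were lower and 0 higher at an unadjusted p under 0.05, close to the 13.1% of all genes. Ezhip, an inhibitor of PRC2 known in the germ line, was low throughout, at 1.06, 0.536, 0.404 and 1.21 CPM in sKO, against 2.96 and 3.27 CPM in WT. All sKO values lay below both WT values, and the log2 fold change of −1.95 (SE 0.44) did not pass in edgeR (adjusted p = 0.0763). DESeq2 and limma-voom called Ezhip lower, as did edgeR with the replicate block (adjusted p = 0.0180) and with the subset as a term (0.0149). The block fit draws its genotype difference from sKO-1, sKO-2, WT-1 and WT-2 only. Without a single sKO library Ezhip did not pass in edgeR (adjusted p 0.0798 to 0.177). The accessory gene Jarid2 was not analysed here.

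Of the 10 genes, 2 fell (Scml2 and Eed) and 0 rose, where 2.30% of all genes tested were called lower and 0.124% higher, 2.43% in all. At an unadjusted p under 0.05, 3 were lower and 0 higher, where 13.1% of all genes were under it in either direction, and DESeq2 called 2 lower and 0 higher. All 4 sKO values lay below both WT values in 4 of the 10 genes and above them in 1, against 13.3% and 9.79% of all genes tested. The median log2 fold change of the 10 was −0.14, against 0.03 over all genes. With the library subset as a term Scml2, Eed, Pcgf6 (−0.30, adjusted p = 0.0495) and L3mbtl2 (−0.43, adjusted p = 0.0110) were lower and 0 higher. In that fit 8.65% of all genes were lower and 4.97% higher, and since the term was picked from these libraries its p-values may be too small.

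Of 54 other polycomb and partner genes tested, from lists of known subunits and antagonists, 4 fell and 0 rose, where 2.30% of all genes were called lower and 0.124% higher. With the 10 genes included, 6 of 64 fell and 0 rose, with a median log2 fold change of −0.07. Unadjusted, 9 were lower and 2 higher at p under 0.05, against 13.1% of all genes in either direction, and DESeq2 called 8 lower and 0 higher. Without a single library the number lower was 0 to 3, and 0 without WT-1. Beside the genes above, Sfmbt2, an MBT-repeat protein, fell to 13.3, 11.7, 12.9 and 15.3 CPM in sKO, against 29.4 and 22.9 CPM in WT (log2 fold change −0.98, SE 0.16, adjusted p = 0.0282). Every sKO value was below both WT values. The call held without WT-2 or sKO-4 only, with adjusted p up to 0.312 without another library. Of 7 genes of H2A deubiquitylation, among them Bap1 and Asxl1, 0 passed in edgeR, DESeq2 or at an unadjusted p under 0.05. The same held for the 3 H3K27 demethylase genes Kdm6a, Kdm6b and Uty. With the subset as a term 14 of the 64 were lower and 4 higher (Pcgf2, Cbx6, Rybp and L3mbtl3). In that fit 8.65% of all genes were lower and 4.97% higher.

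**Figure D3:**
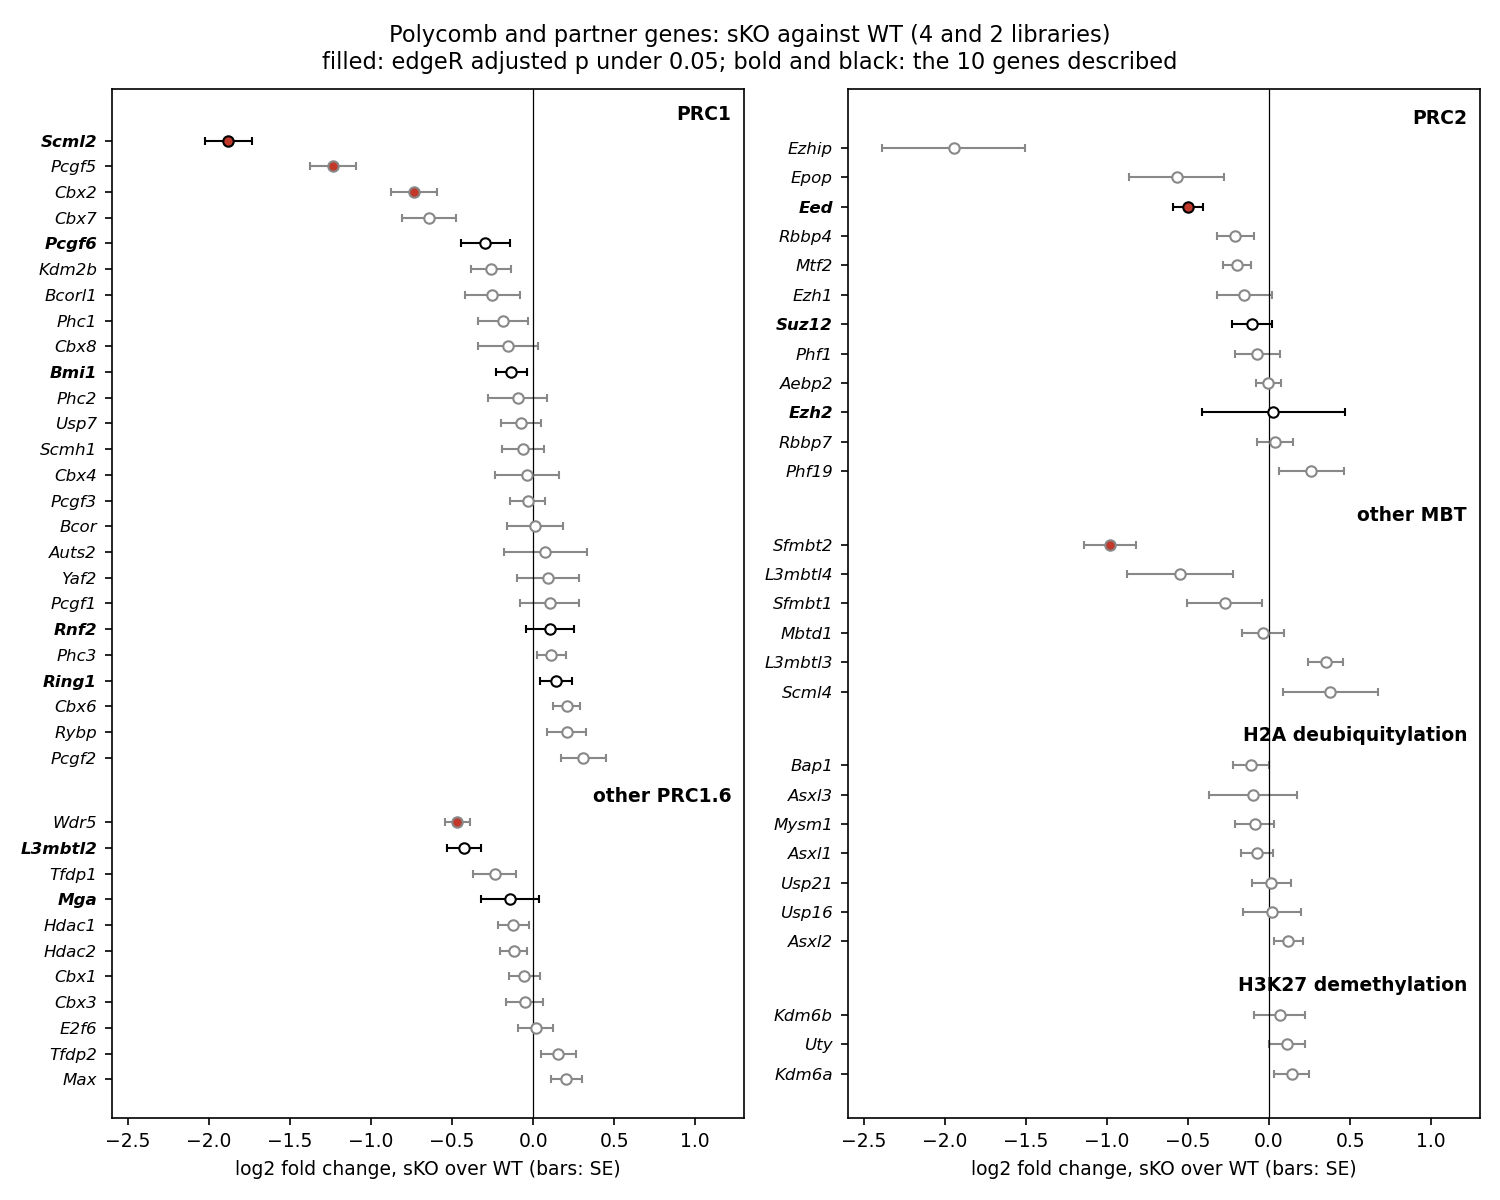
Log2 fold change of sKO over WT (x axis, bars are SE) for the 64 tested polycomb and partner genes, grouped by complex. Filled points have an edgeR adjusted p under 0.05, and bold names are the 10 genes described. The 6 filled points, Scml2, Pcgf5, Sfmbt2, Cbx2, Eed and Wdr5, all lie below 0.

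The germ cell markers, whose sums are given above, had a median log2 fold change of −2.29. Among them Rbm44 (−2.71), the co-chaperone Fkbp6 (−2.06), the RNA-binding protein Dazl (−2.34) and the transcription factor Sohlh1 (−3.07) had adjusted p of 0.00929, 0.00929, 0.00929 and 0.00970. The log2 fold changes of Scml2 (−1.88), Pcgf5 (−1.24), Sfmbt2 (−0.98), Cbx2 (−0.73), Eed (−0.50) and Wdr5 (−0.47) were all smaller in size than that median, a difference that was not tested. Single germ cell markers ran from −3.07 to −1.59, a range that holds Scml2 but not the other 5. Relative to the summed germ cell markers in the same library, the mean log2 ratio in sKO exceeded that in WT by 1.84 for Wdr5, 1.81 for Eed, 1.58 for Cbx2, 1.33 for Sfmbt2 and 1.07 for Pcgf5, and by 0.42 for Scml2. All 6 mean ratios were thus higher in sKO, that of Scml2 by the least. Because the marker sum itself fell, any gene that fell less, or did not change, gains in this ratio. The ratios therefore restate the smaller falls and show no rise of these genes. The ratios of the 5 genes other than Scml2 are given without a test.

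**Figure D4:**
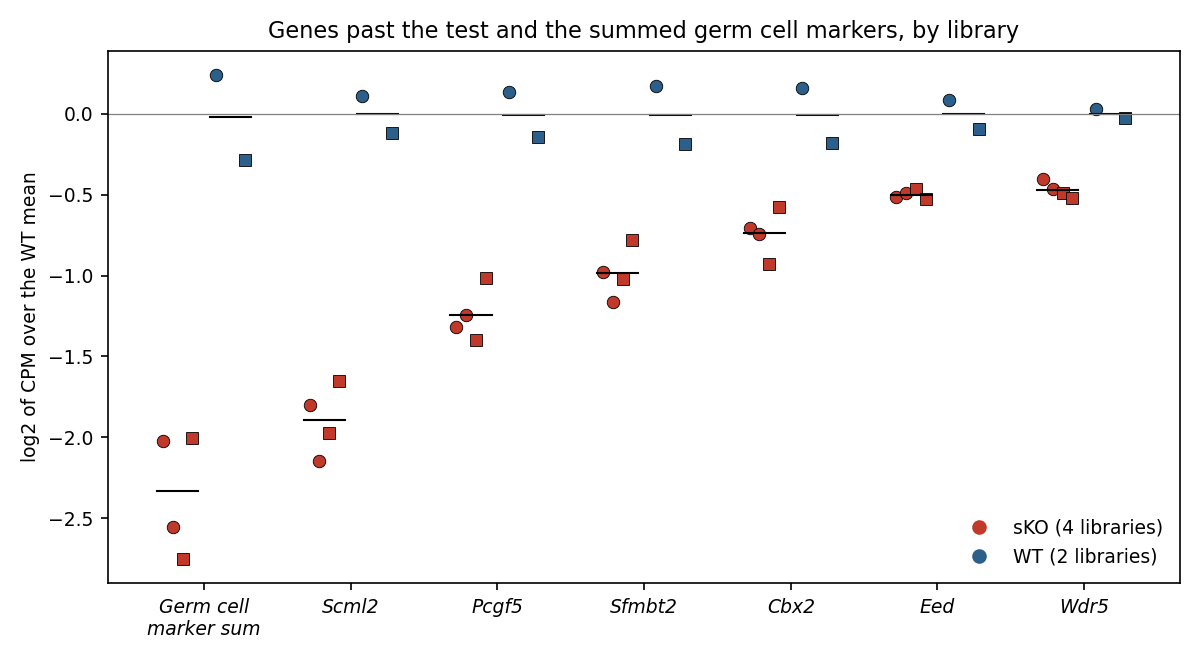
Log2 of CPM over the WT mean in each library, for the summed germ cell markers and the 6 polycomb and partner genes past the test, sKO (red) left of WT (blue). Lines are means, circles library subset 1 and squares library subset 2. The sKO points of every item lie below its WT points, and those of Eed and Wdr5 are the closest to WT.

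Germline genes known as PRC1.6 targets were lower, not higher, in sKO testes. Of 16 tested, 15 fell and 0 rose (DESeq2 15 and 0), with a median log2 fold change of −2.34. Over all genes tested 2.30% were called lower and 0.124% higher. The germ cell markers showed a like fall, 18 of 19 tested, with a median of −2.29. Leaving out the 4 that are also in the germ cell marker list, 11 of 12 fell. Stag3, a meiotic cohesin subunit, was at 13.4, 10.7, 9.65 and 15.5 CPM in sKO, against 66.5 and 43.3 CPM in WT (−2.16, SE 0.23, adjusted p = 0.0110). Slc25a31, a germline ADP/ATP carrier, was at 8.83 ± 3.19 CPM in sKO and 46.3 ± 9.94 CPM in WT (−2.39, adjusted p = 0.0138). Ddx4, the germ cell RNA helicase, was at 20.1 ± 6.63 CPM in sKO and 99.4 ± 28.7 CPM in WT (−2.31, adjusted p = 0.0136). The kinase-domain gene Stk31 (−2.55) and Stra8 (−3.87), which retinoic acid induces, had an adjusted p of 0.00929 each. Meioc did not pass (−1.07, adjusted p = 0.218). Most of these genes are themselves transcribed in germ cells, whose markers fell in the same libraries, and silencing of these genes in single cell types was not tested.

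The Hox genes, classical targets of both complexes in somatic cells, did not pass. Of 39 listed, 25 passed the count filter and 0 were called in either direction by edgeR, DESeq2 or limma-voom. At an unadjusted p under 0.05, 3 were higher and 0 lower, where 13.1% of all genes were under it in either direction. Hoxd9 was at 64.2, 56.6, 84.2 and 100.01 CPM in sKO, against 42.7 and 73.6 CPM in WT, with overlapping groups (log2 fold change 0.39, SE 0.28, adjusted p = 0.660). Hoxd8 was at 59.4, 58.6, 58.9 and 58.1 CPM in sKO, against 45.3 and 53.3 CPM in WT (0.25, SE 0.10, adjusted p = 0.298). Its sKO values all lay above both WT values. With the subset as a term Hoxd8 and Hoxd9 were higher and 0 were lower, where 4.97% of all genes were higher and 8.65% lower.

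Per length, the 10 genes spanned about the same range in both genotypes, with Scml2 moving furthest in rank. On the scale of CPM per kb of exon in the GRCm38 annotation, Rnf2 was at 36.6 ± 3.86 in sKO and 34.0 ± 7.60 in WT, and Suz12 at 31.8 ± 3.77 in sKO and 34.2 ± 2.91 in WT. These were the top pair in both genotypes and overlapped within their SDs. Bmi1 followed at 14.4 ± 0.799 in sKO and 15.8 ± 1.32 in WT. Ezh2 was at 11.5 ± 4.93 in sKO and 11.2 ± 6.30 in WT, Ring1 at 11.2 ± 0.529 in sKO and 10.1 ± 0.324 in WT, and Mga at 10.6 ± 1.52 in sKO and 11.7 ± 3.01 in WT. Eed was at 10.3 ± 0.187 in sKO, rank 7, and 14.5 ± 1.28 in WT, rank 5. From Bmi1 down to Eed in sKO, and from Bmi1 down to Ring1 in WT, neighbours in the order lay within their summed SDs. Pcgf6 was at 5.10 ± 0.700 in sKO and 6.27 ± 0.444 in WT, and L3mbtl2 at 4.59 ± 0.231 in sKO and 6.18 ± 0.0547 in WT. Scml2 was at 4.29 ± 0.631 in sKO, rank 10 of 10 and within the SDs of L3mbtl2, and at 15.8 ± 1.76 in WT, rank 4 and within the SDs of Bmi1 and Eed.

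The genes whose profile over the 6 libraries was most like that of Scml2 were Rasd2, Psma8, Lin28b, Zyg11a and Sohlh2. Likeness was the root mean square difference of log2 CPM, each profile centred on its own mean. Ranked were 13173 tested genes with a mean of at least 1 CPM. The 10 polycomb genes, genes without a symbol, and symbols of Gm plus a number, ending in Rik or holding -ps were left out. The difference was 0.10 for Rasd2 and Psma8, 0.11 for Lin28b and 0.12 for Zyg11a and Sohlh2. Lin28b, an RNA-binding protein that blocks let-7 maturation, was at 2.96, 2.84, 2.71 and 3.41 CPM in sKO, against 13.3 and 11.5 CPM in WT. Sohlh2, a transcription factor of spermatogonia, was at 7.78, 4.82, 5.43 and 7.74 CPM in sKO, against 25.9 and 23.4 CPM in WT. Both were chosen for their likeness to Scml2, so that their fall is part of the choice. The 18 germ cell markers ranked by this measure lay between rank 5 (Sohlh2) and rank 455 (Sohlh1), with Dnd1 at 6, Piwil4 at 10 and Dazl at 72. All these profiles share the same 6 libraries.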

How the data were processed

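The authors deposited 1 table of expected counts, unscaled, for 57170 gene identifiers in 6 libraries of whole testis. Per the submitters' processing notes it came from fastp, STAR and RSEM with the build mm39. The sources used here name no version, annotation or strand setting. Reads that fit more than 1 gene are shared out by RSEM, and the authors' counting may mix opposite-strand overlaps. Symbols came from GENCODE M21 (GRCm38) and matched 51742 identifiers (90.5%); Ezhip was matched through its older symbol in RefSeq. Groups follow the titles, 4 sKO and 2 WT, although the design text gives 3 per group.

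Counts were rounded, filtered with filterByExpr (minimum count 10), scaled by TMM and tested with the quasi-likelihood test of edgeR 4.0.16 (R 4.3.3), two-sided, without covariate, with Benjamini-Hochberg adjustment over 17707 genes and a threshold of 0.05. SE is the log2 fold change over the root of F, and intervals are 95%. Log2 CPM carry a prior count of 2. Alternatives used DESeq2 1.42.0, limma-voom (limma 3.58.1), other scalings and filters, left-out libraries and the replicate number; the library subset as a term, each subset alone and unrounded counts were added after seeing the data. With the replicate number as a block, sKO-3 and sKO-4 have no WT library of their number and add nothing to the genotype difference. The steps were tested on simulated data. No libraries of a group agreed within sampling noise (chi-square per gene 4.08 to 24.7), so none were merged.

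The 10 genes and the lists were chosen with earlier results of these data known. Named were the 10 genes, any gene of the polycomb lists, from each other list up to 4 with the smallest adjusted p or the 2 most abundant, Mdm2, and the 5 genes most like Scml2. Slc25a31, Ddx4, Meioc, Utf1, Tex101, Tdrkh, Dnd1, Piwil4, Trmt1l, Chadl and E230029C05Rik were named after their values were seen.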

Additional observations from a re-analysis of the deposited data

How the results depend on the processing

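The Scml2 log2 fold change kept its direction under all 19 alternatives and its call under 18; without single libraries it ran from −2.02 to −1.76. The count of the 10 genes past the test was 2 and became 1 with upper-quartile factors, no scaling factor, Sertoli library sizes, no count filter or the replicate block, 4 with the library subset as a term, and 0 to 1 without single libraries (0 without WT-1). Over the polycomb and partner genes it was 6, with 18 under the subset term and 0 to 3 without single libraries. Over all genes it was 430, with 734 in DESeq2, 864 under the replicate block (648 lower, 216 higher), 2411 under the subset term, 1228 and 834 within subsets 1 and 2, and 3 to 232 without single libraries. Fits without a library hold fewer samples, and otherwise the cause was not tested. With 1 WT library left, its spread is taken to equal that among sKO libraries. Of 171 values of the other 9 genes, 12 changed sign, none of them past the test. Sertoli library sizes moved the median of all genes by −0.16 and gave −0.024 for Ring1, −0.045 for Rnf2 and −0.17 for Ezh2; no scaling factor gave −0.013 and subset 1 alone −0.027 for Ezh2. Without single libraries Rnf2 ran from −0.11 to 0.32, Mga from −0.42 to 0.15 and Ezh2 from −0.49 to 0.76. The replicate numbers pair no samples by label: deviations of the libraries numbered 1 correlated at 0.42 and of those numbered 2 at −0.44. The replicate block gave −0.015 for Rnf2, 0.049 for Mga, −1.97 for Scml2 and 0.59 for Ezh2 (adjusted p = 0.0991). Eed (−0.50, 0.0846) and Wdr5 (−0.44, 0.0911) did not pass in it. In this fit sKO-3 and sKO-4 have no WT library of their number. The genotype difference therefore rests on sKO-1, sKO-2, WT-1 and WT-2. It sets sKO-2 of subset 1 against WT-2 of subset 2, so the 0.59 for Ezh2 mixes genotype with subset. Calls lost or gained in this fit thus rest on fewer libraries than the main test. The share of Scml2 in germ cell markers does not depend on scaling and differed by 0.27 to 0.57 without single libraries. With 2 WT libraries, changes as small as those of Eed sit near the limit of detection.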

Other observations

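Of 4 pairs of paralogs, the balance overlapped between genotypes in 2. On the scale of CPM per kb of exon, Bmi1 made up 37.8% to 41.1% of the summed Bmi1 and Pcgf2 level in sKO libraries, against 45.1% and 48.5% in WT libraries. Pcgf5 made up 10.9% to 15.2% of the summed Pcgf5 and Pcgf3 level in sKO libraries, against 24.0% and 25.3% in WT libraries. In both pairs the sKO values lay below both WT values, although Bmi1, Pcgf2 and Pcgf3 did not pass the test. Of single genes tested, 13.3% had all sKO values below both WT values and 9.79% above them. Such a share was not computed for pairs. Ring1 made up 21.1% to 26.0% of the summed Ring1 and Rnf2 level in sKO libraries, against 20.1% and 26.5% in WT libraries, with overlap. Ezh2 made up 54.4% to 69.6% of the summed Ezh2 and Ezh1 level in sKO libraries, against 49.6% and 64.9% in WT libraries, also with overlap. These pairs were chosen after their values were seen and were not tested.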
